A study of Homo sapiens with 4 samples.

Results

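Long noncoding RNAs were followed in D458 cells, a human line grown from a medulloblastoma (a tumour of the cerebellum) and known for its MYC amplification, after a hairpin lowered SETD8, the enzyme that adds a single methyl group to lysine 20 of histone H4. The set held every row of the count table whose symbol begins with LINC or SNHG and a digit, or is MALAT1, NEAT1 or GAS5, and that had at least 10 counts in at least 2 of the 4 libraries. It comprised 149 of the 16839 rows, namely 132 LINC genes, 16 snoRNA host genes (15 SNHG genes and GAS5) and MALAT1. Another 68 rows matched by symbol and lay below the count rule, 67 of them LINC genes and the other NEAT1. Just inside the rule were LINC01011 (15 and 10 counts in shNull, 7 and 10 in shSETD8), LINC01134 (10, 8, 13 and 5) and LINC00639 (9, 13, 10 and 9). Just outside were LINC00664 (0, 1, 45 and 9 counts), LINC01619 (13, 9, 4 and 8) and LINC00176 (6, 5, 11 and 9).

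Both groups were stable D458 lines, transduced with lentivirus and kept for 14 days under puromycin (1 µg/mL). The shNull cells carried a non-targeting hairpin and the shSETD8 cells a hairpin against SETD8, labelled as an 80% knockdown. Each group had 2 libraries from separate clones, and several SETD8 hairpins were used without a record here of which clone had which. P-values therefore measure the spread between clones of 1 line, which in shSETD8 cannot be told apart from a difference between hairpins. Fewer cells expressing a transcript cannot be told apart from less transcript per cell.

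A snoRNA host gene carries small nucleolar RNAs in its introns. Once the host transcript is spliced, the introns yield snoRNAs that guide 2′-O-methylation or pseudouridylation of ribosomal RNA, while the spliced host RNA is often short lived and removed by nonsense-mediated decay. Many hosts start with a run of pyrimidines, as ribosomal protein genes do. LINC symbols are placeholders for intergenic transcripts of mostly unknown function, so the LINC group is a naming class and not a pathway. MALAT1 and NEAT1 are nuclear RNAs, found in nuclear speckles and, for NEAT1, as the scaffold of paraspeckles.

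The libraries held between 40908334 and 52627366 counts. SETD8 itself stood at 38.9 and 41.6 CPM (counts scaled to a common library size) in shNull, against 14.0 and 26.4 CPM in shSETD8, a log2 fold change of -0.998 ± 0.303 (SE, n = 2 per group). The shSETD8 libraries kept 34.7% and 65.5% of the mean shNull level of SETD8 RNA, so neither showed the labelled 80% loss in its counts, and they differed from each other. The adjusted p of SETD8 was 0.421 by edgeR's quasi-likelihood test and 0.0459 by DESeq2, both with Benjamini-Hochberg adjustment. Of the 6 listed markers of Group 3 medulloblastoma, 5 were measured, and OTX2 and MYC were abundant in all libraries. Of the 6 listed immune or endothelial markers, 4 had rows, which summed to 1.99 to 2.45 CPM. The 6 astrocyte or fibroblast markers summed to 65.0 and 53.2 CPM in shNull and to 32.5 and 40.01 CPM in shSETD8. DCN and LUM made up most of that sum and were lower in both shSETD8 libraries, with an adjusted p by DESeq2 of 0.0964 and 0.00966. COL1A1 of the same list went the other way, from 1.88 and 1.97 CPM to 3.81 and 4.81 CPM, and GFAP, AQP4 and COL1A2 had at most 19 counts in any library. The part of these markers in the results for the noncoding RNAs was not tested.

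The 16 snoRNA hosts differed little between the groups. Their median log2 fold change, shSETD8 over shNull, was 0.07, and the range was -0.85 (SNHG20) to 0.37 (SNHG12). The median over all 14546 genes tested was 0.01. At an adjusted p under 0.05, edgeR's quasi-likelihood test called 0 of the 16 hosts and 0.0% of all genes, and 2 hosts had an unadjusted p under 0.05, where 10.8% of all genes did. DESeq2 called those 2 hosts, SNHG4 and SNHG20, both lower in shSETD8. It called 1.94% of all genes, 0.928% as higher and 1.02% as lower. The CPM values of the groups did not overlap for 13 of the 16 hosts, 7 of them higher and 6 lower in shSETD8, against 45.3% of all genes tested.

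The first bases of host transcripts are shown here for hosts with low (SNHG20, SNHG4), high (SNHG12, SNHG16) and nearly equal (SNHG5, SNHG1) values in shSETD8. Each window holds 45 bases before and 35 bases from the annotated start, from RefSeq on GRCh38.p14. Capitals mark TATAA in the 40 to 15 bases before the start and the unbroken pyrimidine run at the start. The windows are chr1:28581839-28581918 (minus strand) for SNHG12, chr6:85678699-85678778 (minus strand) for SNHG5, chr5:139274056-139274135 (plus strand) for SNHG4, chr11:62855851-62855930 (minus strand) for SNHG1, chr17:77088598-77088677 (plus strand) for SNHG20 and chr17:76557719-76557798 (plus strand) for SNHG16.
SNHG12: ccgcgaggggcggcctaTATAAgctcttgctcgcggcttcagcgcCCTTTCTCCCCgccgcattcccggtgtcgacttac
SNHG5: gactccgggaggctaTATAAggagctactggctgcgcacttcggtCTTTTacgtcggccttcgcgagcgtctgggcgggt
SNHG4: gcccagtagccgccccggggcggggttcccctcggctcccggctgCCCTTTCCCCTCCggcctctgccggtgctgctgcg
SNHG1: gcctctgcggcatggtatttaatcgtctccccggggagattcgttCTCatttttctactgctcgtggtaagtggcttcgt
SNHG20: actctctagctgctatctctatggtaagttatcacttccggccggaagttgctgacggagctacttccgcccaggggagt
SNHG16: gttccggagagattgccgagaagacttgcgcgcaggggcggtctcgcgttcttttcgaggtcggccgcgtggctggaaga

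SNHG12 and SNHG5 carried both features, SNHG4 only a long pyrimidine run, and SNHG20 and SNHG16 neither at the annotated start. Of the 13 host promoters in the table, 3 (SNHG12, SNHG4 and SNHG5) began with C and at least 4 further pyrimidines, a share of 23.1%. The same start was found in 1.79% of 112 promoters of LINC members, in 4.07% of all 35116 promoters and in 45.7% of 35 promoters of a list of protein-coding snoRNA hosts, most of them ribosomal protein genes. TATAA stood in the 40 to 15 bases before the start of 4 host promoters (SNHG12, SNHG5, SNHG7 and SNHG8), a share of 30.8%, against 0.893% for LINC members and 3.91% of all promoters. The E-box CACGTG, which reads the same on both strands and is the site MYC is known to bind, lay in the window of 250 bases before to 50 bases after the start of 1 host, SNHG7 (7.69%). That share was 11.6% for LINC members and 7.26% for all promoters. The hosts with the pyrimidine start had fold changes on both sides of 0 (SNHG12 0.37, SNHG5 0.02 and SNHG4 -0.53). The 4 with TATAA all had values above 0, from 0.02 to 0.37, as did GAS5, SNHG11, SNHG16 and SNHG17, which lack it, and the 5 promoters of hosts below 0 lack it. All of these calls hold for annotated RefSeq starts only, where GAS5 had a pyrimidine run of 0 bases. The starts used in D458 cells were not measured. No test was made of these features.

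Among the hosts, SNHG4 and SNHG20 were lower in both shSETD8 libraries. SNHG4, which holds 2 H/ACA snoRNAs of the SNORA74 family, stood at 59.3 and 61.4 CPM in shNull, against 42.2 and 41.5 CPM in shSETD8. Replicates of each group lay close together, and the groups did not overlap. The log2 fold change was -0.53 ± 0.10 (SE), with an adjusted p of 0.356 by edgeR and 0.00752 by DESeq2. SNHG4 shares its locus with MATR3, an abundant gene for a nuclear matrix protein, and MATR3 stood at 1051 and 949 CPM in shNull, against 825 and 916 CPM in shSETD8. Of the 50-base words in SNHG4 exons, 17.0% also occur in another gene, and the sources do not say whether strand was used in counting.

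SNHG20 stood at 9.85 and 9.09 CPM in shNull, against 5.17 and 5.36 CPM in shSETD8. Again the replicates were close and the groups apart. The log2 fold change was -0.85 ± 0.18 (SE), the lowest among the hosts, with an adjusted p of 0.362 by edgeR and 0.0325 by DESeq2. SEC14L1, which overlaps SNHG20, stood at 76.8 and 72.8 CPM in shNull, against 75.8 and 87.3 CPM in shSETD8. With 1 library left out, the log2 fold change ran from -0.55 to -0.51 for SNHG4 and from -0.91 to -0.79 for SNHG20. Such fits measure no spread between clones in the group of 1 library.

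The other hosts with lower values in both shSETD8 libraries were SNHG10, SNHG9, SNHG3 and SNHG1. SNHG3, which carries both SNORA73 genes beside RCC1, stood at 119 and 116 CPM in shNull, against 107 and 102 CPM in shSETD8 (log2 fold change -0.17 ± 0.09, SE). SNHG1, whose introns hold 8 C/D box snoRNAs, stood at 161 and 157 CPM in shNull, against 149 and 148 CPM in shSETD8 (-0.10 ± 0.08). For both, the groups were apart by a small margin. SNHG10 had a log2 fold change of -0.30 ± 0.17 and SNHG9, the scarcer of the pair at 2.33 to 3.13 CPM, one of -0.26 ± 0.26. None of these 4 had an adjusted p under 0.05 by edgeR or by DESeq2.

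SNHG12 had the highest fold change among the hosts. It carries 4 snoRNAs and stood at 18.5 and 21.6 CPM in shNull, against 28.1 and 23.8 CPM in shSETD8, so the groups were apart while the shSETD8 libraries differed from each other. Its log2 fold change was 0.37 ± 0.15 (SE), with an adjusted p of 0.472 by edgeR and 0.489 by DESeq2. TRNAU1AP, the tested gene that overlaps SNHG12, stood at 15.04 and 14.7 CPM in shNull, against 18.9 and 19.8 CPM in shSETD8 libraries, for a log2 fold change of 0.38 ± 0.13. With 1 library left out the log2 fold change of SNHG12 ran from 0.25 to 0.49.

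SNHG16, host of the SNORD1 family, stood at 175 and 160 CPM in shNull, against 182 and 212 CPM in shSETD8 (log2 fold change 0.23 ± 0.11, SE, adjusted p 0.505 by edgeR). SNHG8, host of SNORA24, stood at 53.1 and 46.1 CPM in shNull, against 57.6 and 57.3 CPM in shSETD8 (0.21 ± 0.11). The groups did not overlap for either gene, nor for SNHG15 (0.12), SNHG6 (0.12), SNHG17 (0.08) and SNHG11 (0.07), whose log2 fold changes were smaller. None of these 6 had an adjusted p under 0.05 by edgeR or by DESeq2. The 2 shSETD8 libraries lay above both shNull libraries in all 6, by a margin that for SNHG15, SNHG17 and SNHG11 was under 0.5 CPM at its narrowest.

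The most abundant hosts, GAS5 and SNHG5, were among the 3 whose groups overlapped. GAS5, a host of 11 snoRNAs whose RNA accumulates in growth-arrested cells, stood at 416 and 363 CPM in shNull, against 362 and 467 CPM in shSETD8. The shSETD8 replicates held both the lowest and the highest of the 4 values, and the log2 fold change was 0.09 ± 0.15 (SE). SNHG5 stood at 355 and 313 CPM in shNull, against 344 and 335 CPM in shSETD8, the latter pair between the former (0.02 ± 0.10). SNHG7 stood at 59.5 and 59.4 CPM in shNull, against 70.5 and 53.5 CPM in shSETD8 (0.06 ± 0.15), with the shSETD8 replicates on either side of shNull. The sign of the fold change turned for each of these 3 genes when 1 library was left out.

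**Figure D1:**
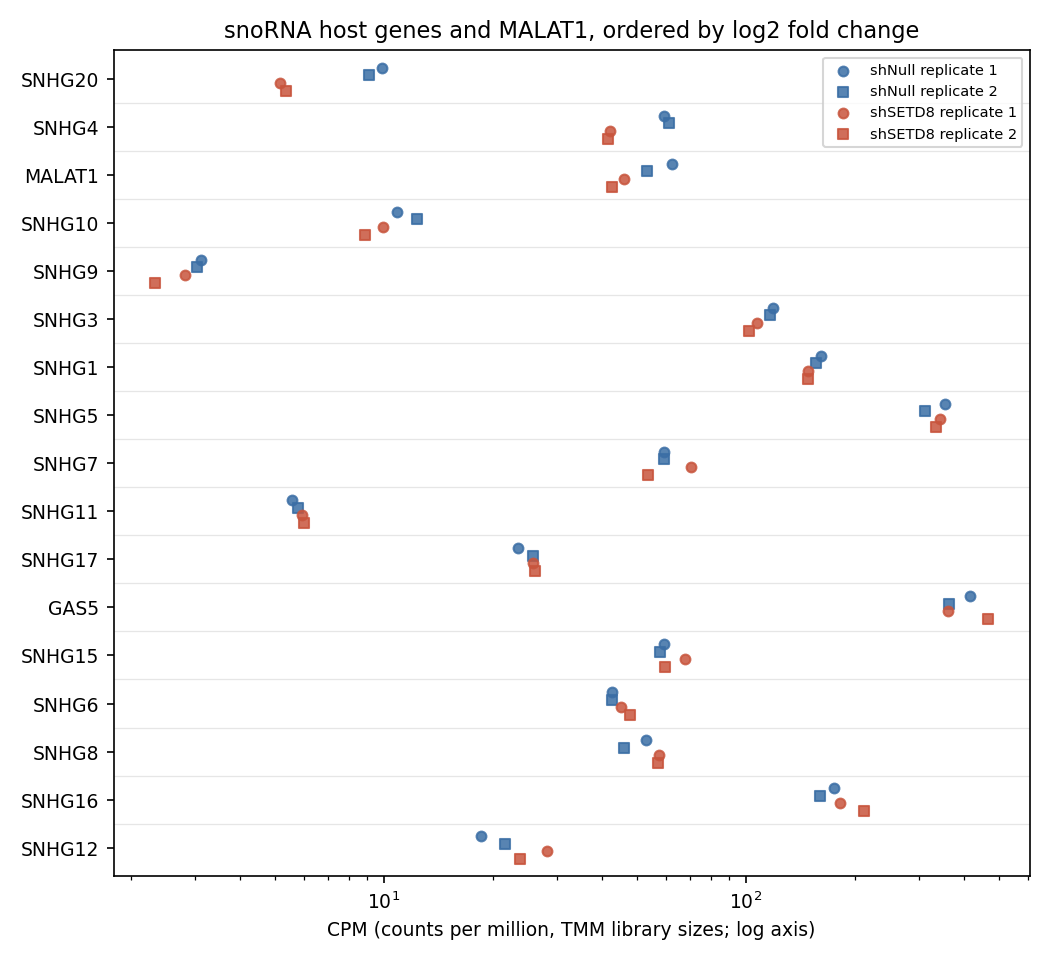
Level of each snoRNA host member and of MALAT1 in CPM (log axis). Each library has 1 point, and the 2 shNull and 2 shSETD8 libraries are in separate colours. SNHG20 and SNHG4 show both shSETD8 points below both shNull points, at 5.17 and 5.36 CPM against 9.85 and 9.09 CPM and at 42.2 and 41.5 CPM against 59.3 and 61.4 CPM, while GAS5, SNHG5 and SNHG7 overlap.

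Per kilobase of exon, the hosts were the more abundant class. The median level in shNull was 16.1 CPM per kilobase over the 15 hosts with a known length and 0.614 CPM per kilobase over 107 LINC members. In shSETD8 the medians were 17.5 and 0.593. In shNull the order of the hosts ran from SNHG5 (119 CPM per kilobase) and GAS5 (107) through SNHG8 (53.7), SNHG1 (42.3), SNHG6 (34.2), SNHG16 (31.3) and SNHG3 (28.7) to SNHG20 at the bottom (1.56). Of the neighbours in the order of the 15 hosts, SNHG5 and GAS5, SNHG7 and SNHG4, and SNHG17 and SNHG9 had overlapping shNull values, and the others did not overlap. LINC00599 (54.1 CPM per kilobase) and LINC00657 (31.1) were the highest LINC members on this scale. As a share of all counts, the hosts took 0.156%, 0.148%, 0.150% and 0.159% in shNull replicates 1 and 2 and shSETD8 replicates 1 and 2, with overlapping groups. The LINC members together took 0.144%, 0.142%, 0.128% and 0.124% in the same order, lower in both shSETD8 libraries. Without LINC00599 the LINC members summed to 1206 and 1194 CPM in shNull and to 1176 and 1121 CPM in shSETD8.

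MALAT1, the RNA of nuclear speckles, stood at 62.5 and 53.4 CPM in shNull, against 46.1 and 42.7 CPM in shSETD8. Both shSETD8 values lay below both shNull values. The log2 fold change was -0.38 ± 0.12 (SE), with an adjusted p of 0.424 by edgeR and 0.272 by DESeq2, so the difference did not pass either test. The log2 fold change of MALAT1 ran from -0.50 to -0.27 with 1 library left out. NEAT1 had 0 and 1 counts in shNull, against 1 and 7 counts in shSETD8, a ratio of 6.77 with an exact 95% interval of 0.908 to 300, which covers counting error only. A difference in NEAT1 was not detectable at this depth. The libraries were selected for poly(A), and most MALAT1 RNA is known to end without a poly(A) tail.

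Among 131 LINC members tested, the median log2 fold change was -0.11, with 52 above 0 and 79 below. At an adjusted p under 0.05 edgeR called 0, and 14 (10.7%) had an unadjusted p under 0.05, close to the 10.8% of all genes. With 1 library left out, the LINC median ran from -0.17 to -0.064. Of the 14 with an unadjusted p under 0.05, 3 were higher in shSETD8 and 11 lower, beside 5.65% and 5.16% of all genes. DESeq2 called 3 of the 128 it adjusted (2.34%, against 1.94% of all genes), namely LINC00599 and LINC01021, lower, and LINC00958, higher. The groups did not overlap for 61 members (46.6%, against 45.3%). Of these, 19 were higher (14.5%, against 22.9%) and 42 were lower (32.1%, against 22.4%).

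The balance of signs differed between abundant and scarce members. Among the 58 LINC members averaging at least 100 normalised counts, 29 were above 0 and 29 below, the median was -0.0036, and 12 were higher and 13 lower with groups apart (20.7% and 22.4%, against 24.1% and 22.04% of all genes at that level). In this abundant group 1 member was higher and 5 were lower at an unadjusted p under 0.05 by edgeR. Among the scarce ones 2 were higher and 6 lower. Together these made 10.3% of the abundant and 11.0% of the scarce members, against 10.8% and 10.9% of all genes at those levels. Over all genes 658 were higher and 593 lower at the abundant level, and 164 and 158 at the scarce level. Among the 73 tested members under 100, the median was -0.25, 50 were below 0, and 29 (39.7%) were lower with groups apart against 7 higher. Over all 2946 tested genes under 100 the median was -0.03, with 23.8% lower and 18.2% higher with groups apart. The difference between the abundant and the scarce members was not tested. The 9 LINC members on the X chromosome had 2 values above 0 and 7 below, with 5 lower (55.6%, against 22.4% of all genes and 32.1% of LINC members) and 0 higher among those with groups apart. This split by chromosome was not planned, and no test of it was made.

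**Figure D2:**
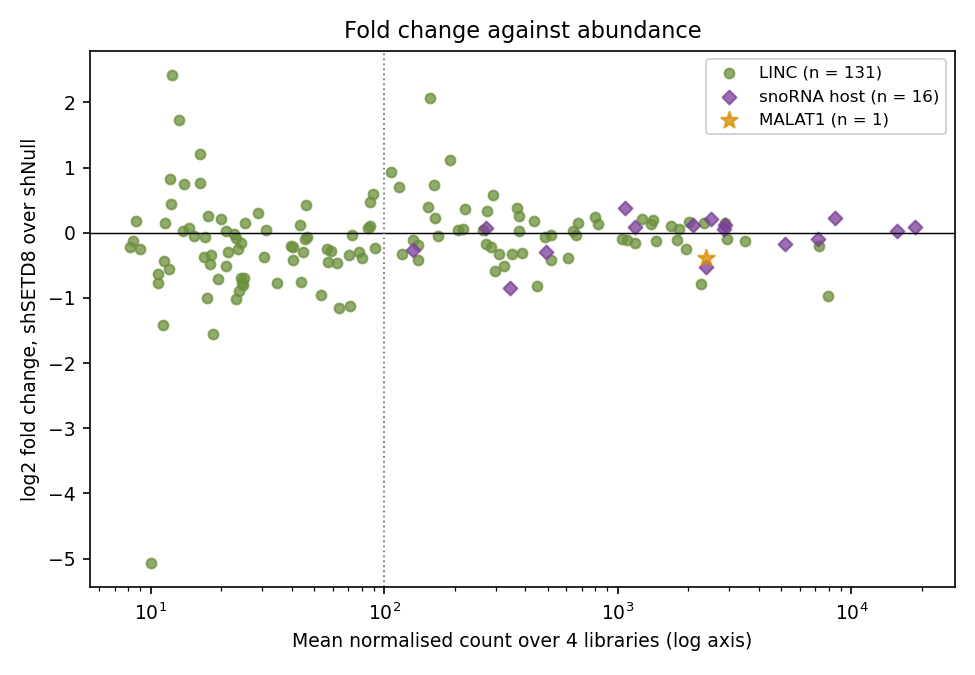
Log2 fold change (shSETD8 over shNull) of each tested member against its mean normalised count (log axis), with LINC members, snoRNA hosts and MALAT1 marked. Hosts lie between -0.85 and 0.37, while LINC members under a mean of 100 spread from -5.07 to 2.42 and lie mostly below 0.

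LINC00599, now named MIR124-1HG for the neuronal microRNA it carries, was the most abundant LINC member. It stood at 246 and 201 CPM in shNull, against 105 and 123 CPM in shSETD8. The groups were well apart, and the log2 fold change was -0.97 ± 0.14 (SE), with an adjusted p of 0.320 by edgeR and 2.47e-06 by DESeq2. The nearest tested genes on either side, taken at any distance, were TNKS and MSRA. Their log2 fold changes were -0.01 ± 0.13 and -0.13 ± 0.26. With 1 library left out, the log2 fold change of LINC00599 ran from -1.11 to -0.81.

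LINC01021, now named PURPL and known as a p53-induced RNA that lowers p53, stood at 70.4 and 52.0 CPM in shNull, against 33.3 and 37.8 CPM in shSETD8. Its groups did not overlap, and the log2 fold change was -0.78 ± 0.18 (SE), with an adjusted p of 0.365 by edgeR and 0.00989 by DESeq2. The nearest tested genes on either side, taken at any distance, were DROSHA and CDH12. DROSHA, which encodes the nuclease that cuts microRNA precursors in the nucleus, had a log2 fold change of -0.01 ± 0.10. CDH12 on the other side was scarce, at 0.113 and 0.144 CPM in shNull, against 0.286 and 1.39 CPM in shSETD8.

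LINC00958 was the only LINC member that DESeq2 called as higher. It had 51 and 60 counts in shNull, against 433 and 127 in shSETD8, or 1.15, 1.44, 8.26 and 2.60 CPM. Both shSETD8 values exceeded both shNull values, and replicate 1 exceeded replicate 2 by 1.65 on the log2 scale. The fitted log2 fold change was 2.06 ± 0.60 (SE), with an adjusted p of 0.404 by edgeR and 0.0356 by DESeq2. Without shSETD8 replicate 1 the log2 fold change was 0.999, and without replicate 2 it was 2.67.

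Among the members with a mean of at least 100, the other low values in shSETD8 were smaller or less even. LINC01089 stood at 13.2 and 11.4 CPM in shNull, against 8.18 and 5.81 CPM in shSETD8 (log2 fold change -0.81 ± 0.23, SE, adjusted p 0.404 by edgeR and 0.111 by DESeq2). It overlaps SETD1B, a histone H3 lysine 4 methyltransferase gene, and shares 46.4% of its 50-base words with other genes, while SETD1B itself had a log2 fold change of -0.04 ± 0.16. The groups were also apart for LINC00894 (-0.50 ± 0.20), LINC00891 (-0.42 ± 0.16), both on the X chromosome, and LINC00847 (-0.38 ± 0.19). They overlapped for LINC00592 (-0.42 ± 0.42). LINC01260 stood at 7.41 and 7.82 CPM in shNull, against 2.06 and 8.07 CPM in shSETD8, so its fold change of -0.59 ± 0.61 was 0.081 without replicate 1, and 95.0% of its words occur in other genes.

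LINC00657, now NORAD, binds PUMILIO proteins in the cytoplasm. It stood at 168 and 164 CPM in shNull, against 139 and 149 CPM in shSETD8 libraries, for a log2 fold change of -0.20 ± 0.09 (SE) and an adjusted p of 0.484 by edgeR and 0.577 by DESeq2. Of the other abundant members, LINC01000 (-0.13 ± 0.13) and LINC01001 (-0.10 ± 0.13) had overlapping groups. LINC00674 stood at 58.9 and 57.7 CPM in shNull, against 63.0 and 66.3 CPM in shSETD8 (0.15 ± 0.10), with the groups apart.

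Several of the highest fold changes among members with a mean of at least 100 were carried by shSETD8 replicate 1 alone. LINC00469 stood at 2.08 and 3.05 CPM in shNull, against 8.48 and 2.68 CPM in shSETD8. LINC00668 stood at 1.68, 1.47, 4.44 and 1.54 CPM, and LINC00202-2, now FAM238B, at 2.47, 2.79, 6.04 and 2.68 CPM in the same order of libraries. In all 3, replicate 2 lay within or beside the shNull values and replicate 1 far above them, and the groups overlapped. Their log2 fold changes of 1.12, 0.93 and 0.73 were 0.061, -0.037 and 0.027 without replicate 1. LINC00896 stood at 1.90 and 1.85 CPM in shNull, against 5.51 and 0.573 CPM in shSETD8, above and below both shNull libraries. LINC01123 (log2 fold change 0.40 ± 0.35) also overlapped, and 92.2% of its words occur in other genes. The groups were apart for LINC00957, at 5.23 and 4.79 CPM in shNull, against 5.89 and 9.03 CPM in shSETD8 (0.57 ± 0.27), and for LINC00265 (0.37 ± 0.20). None of these 7 had an adjusted p under 0.05 by edgeR or by DESeq2.

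**Figure D3:**
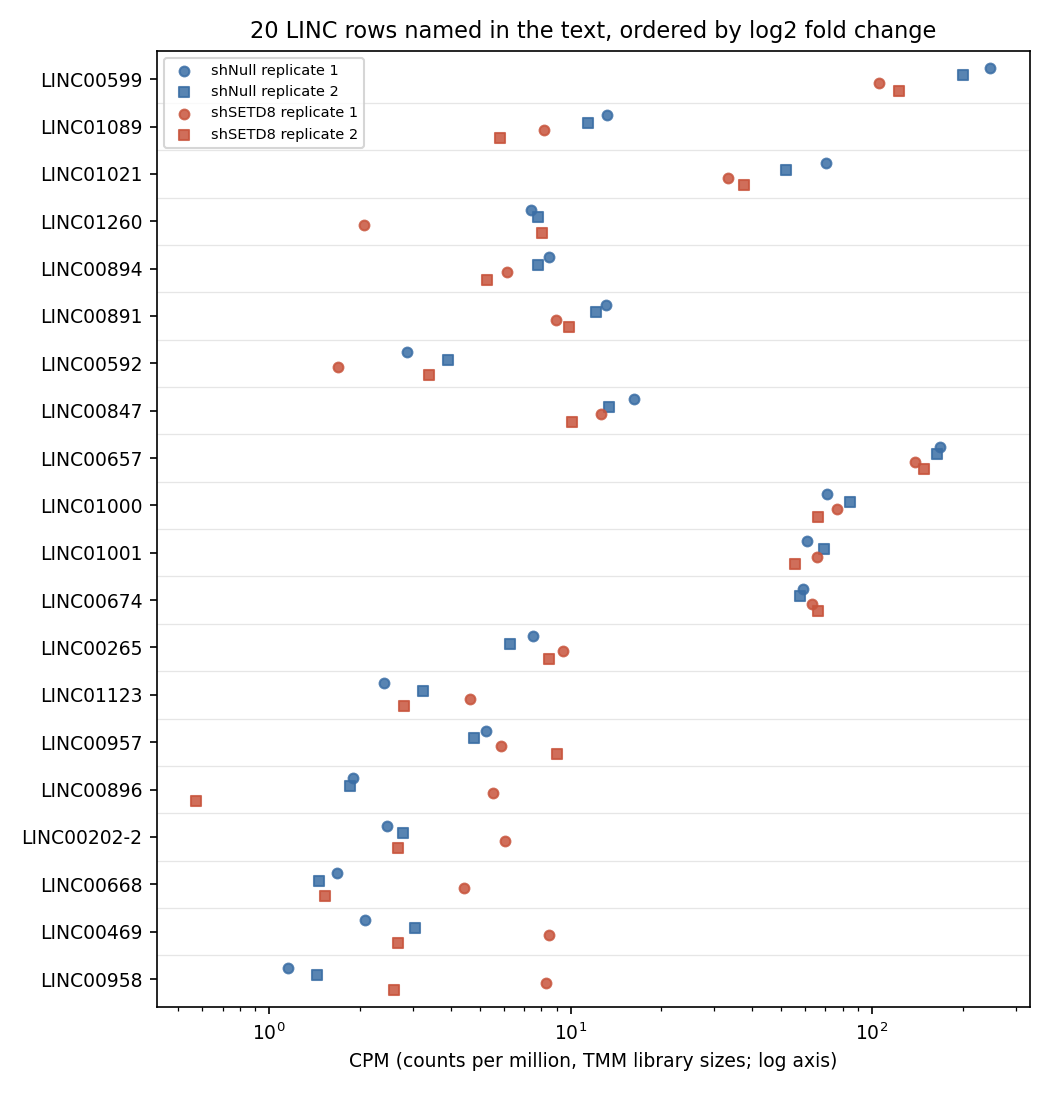
Level of each named LINC member in CPM (log axis), with 1 point per library coloured by group. LINC00599 and LINC01021 have both shSETD8 points below both shNull points, and LINC00469, LINC00668 and LINC00896 have shSETD8 replicate 1 far above the other 3 libraries.

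Some scarce LINC members were also far apart between the groups. The 3 given here were chosen after their values were seen, and each met the count rule only through the group in which it is high, so their ratios and intervals describe these libraries and support no difference. LINC00889 had 21 and 15 counts in shNull, against 0 and 1 counts in shSETD8. The shNull libraries together had 42.5 times the normalised level of shSETD8, with an exact 95% interval of 7.16 to 1726 that covers counting error only. LINC01096 had 5 and 2 counts in shNull, against 20 and 25 in shSETD8, a ratio of 5.44 (2.44 to 14.3). LINC00570 had 3 and 8 counts in shNull, against 23 and 21 in shSETD8, a ratio of 3.39 (1.72 to 7.27). The groups were apart in all 3, and neither edgeR's quasi-likelihood test nor DESeq2 called any of them.

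The replicates of a group differed more for LINC members than for hosts. The median absolute log2 difference between the shNull replicates was 0.22 for LINC members, 0.09 for hosts and 0.12 for all genes tested. Between the shSETD8 replicates it was 0.39 for LINC members, 0.07 for hosts and 0.24 for all genes. A gap of at least 1 on the log2 scale lay between the shNull replicates for 7 LINC members (5.34%, against 2.01% of all genes tested). Between the shSETD8 replicates it did so for 24 (18.3%, against 9.66%), and for 0 hosts in either group. Under a mean of 100 the shSETD8 share was 21.9% of LINC members, against 27.3% of all genes. At a mean of at least 100 it was 13.8%, against 5.19%. The largest host gap was 0.22 in shNull and 0.40 in shSETD8. Every host had a mean of at least 100 normalised counts, and among LINC members at that level the median gap was 0.17 in shNull and 0.30 in shSETD8. The median of these means was 445 for those LINC members and 2446 for the hosts, so abundance was not matched.

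Of the 24 LINC members with a wide gap between the shSETD8 replicates, 11 were higher in replicate 1 and 13 in replicate 2. Above a mean of 100 the members were LINC00896, LINC00958, LINC00469, LINC00668 and LINC00202-2, higher in replicate 1, and LINC01260, LINC01569 and LINC00907, higher in replicate 2. LINC00907 stood at 10.5 and 7.82 CPM in shNull, against 4.79 and 10.1 CPM in shSETD8. LINC01569 stood at 3.08 and 3.39 CPM in shNull, against 2.42 and 5.16 CPM in shSETD8. For both, the shSETD8 replicates lay on different sides of the shNull mean. SETD8 RNA also differed between these libraries, at 14.0 CPM in replicate 1 and 26.4 CPM in replicate 2, and its part in the gaps was not tested.

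**Figure D4:**
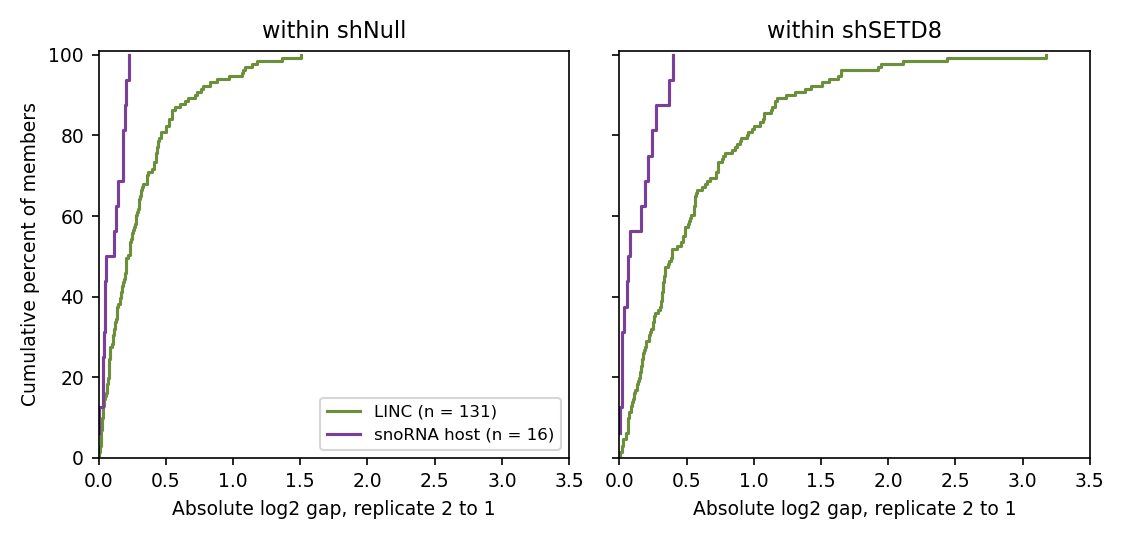
Absolute log2 difference between the 2 replicates of a group, for LINC members and snoRNA hosts, in shNull and in shSETD8. The median for LINC members is 0.22 in shNull and 0.39 in shSETD8, and for hosts 0.09 and 0.07.

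Set against the shNull mean library by library, the median LINC member lay at -0.14 in shSETD8 replicate 1 and at -0.09 in replicate 2. The median host lay at 0.05 and 0.02. These log2 differences share the shNull libraries, so one is no separate support for the other.

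**Figure D5:**
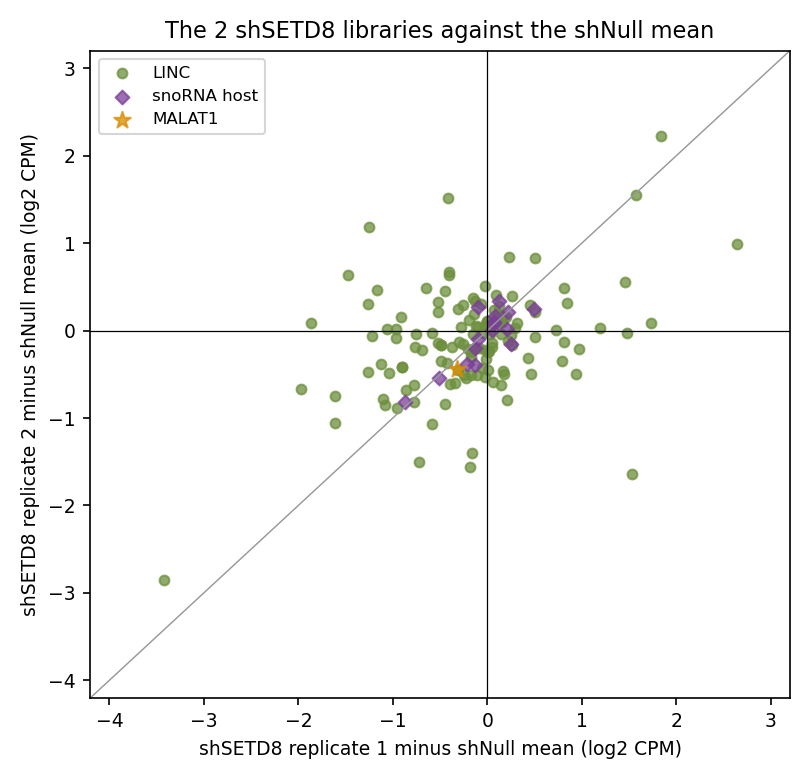
Log2 CPM of each member in shSETD8 replicate 1 (horizontal axis) and replicate 2 (vertical axis), each minus the shNull mean. Among the hosts SNHG20 and SNHG4 lie at the lower left and SNHG12 to the upper right, while LINC members scatter, LINC00896 to 1.53 on one axis and -1.64 on the other.

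Some LINC rows are no longer held to be intergenic noncoding RNAs. Of the 132, 30 carry another current symbol in RefSeq and 10 are listed there as protein coding, for small proteins such as SMIM30 (LINC00998), the P-body protein NBDY (LINC01420) and the mitochondrial peptide MTLN (LINC00116). Those 10 had 5 fold changes above 0 and 5 below, a median of -0.03, and 0 with an unadjusted p under 0.05. LINC00998 stood at 47.8 and 46.7 CPM in shNull, against 49.5 and 55.8 CPM in shSETD8 (0.16 ± 0.11, SE). LINC00888, now SNHG33, is the only LINC member with named snoRNAs inside, 2 of them, and had a log2 fold change of -0.03 ± 0.19. LINC01578, now CHASERR, which restrains the chromatin remodeller gene CHD2, stood at 14.5 and 12.6 CPM in shNull, against 15.1 and 15.2 CPM in shSETD8 (0.15 ± 0.15).

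Members also carry microRNAs, shown here because the abundant LINC00599 is itself a microRNA host and LINC00925, now MIR9-3HG, is a host of miR-9, which is enriched in neural progenitors. The mature miR-9 sequences from RefSeq (GRCh38.p14, plus strand of chromosome 15) are written with the seed, bases 2 to 8, in capitals.
miR-9-5p: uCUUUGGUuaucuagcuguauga
miR-9-3p: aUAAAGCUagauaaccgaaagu
The host transcript LINC00925 stood at 6.61 and 5.72 CPM in shNull, against 5.57 and 5.32 CPM in shSETD8 (log2 fold change -0.18 ± 0.21, SE). The groups were apart by a small margin. The libraries measured host transcripts and not the mature microRNAs or snoRNAs.

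Neighbours were the nearest tested gene on either side, with no limit on distance, and any overlapping tested gene. The 20 named LINC members had 43 such neighbours. Of these, 24 had a fold change of the same sign as the LINC member, 4 had an unadjusted p under 0.05, and DESeq2 called 2. The 4 make 9.3% of the neighbours, against 10.8% of all genes, and DESeq2 called 1.94% of all genes. DBNL, an actin-binding adaptor gene, was such a neighbour of LINC00957. DBNL stood at 44.4 and 41.0 CPM in shNull, against 68.7 and 56.8 CPM in shSETD8 (log2 fold change 0.56 ± 0.13, SE, adjusted p 0.378 by edgeR and 0.0443 by DESeq2). Both shSETD8 values exceeded both shNull values, as they did for LINC00957. KRT8, a keratin gene, was the nearest tested gene on the upper side of LINC00592. KRT8 had 3 and 0 counts in shNull, against 67 and 220 in shSETD8 (adjusted p 0.352 by edgeR and 1.80e-05 by DESeq2), while LINC00592 had overlapping groups.

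Genes of the machinery around these RNAs were taken from lists chosen with earlier results known, and edgeR called 0 members of every list. Of 36 measured protein-coding snoRNA hosts, 25 were above 0 and 11 below, with a median of 0.07, equal to that of the noncoding hosts. The groups were apart for 11 (30.6%, against 45.3% of all genes), 9 higher and 2 lower. RPSA, a small-subunit ribosomal protein gene, stood at 1767 and 1606 CPM in shNull, against 1948 and 2138 CPM in shSETD8. Among 4 measured noncoding hosts outside the SNHG family, 3 were above 0 and 1 below (median 0.49). Above 0 were MEG3 (1.17 ± 0.57, SE) and DANCR (0.78 ± 0.67), both scarce with at most 104 counts in any library, and EPB41L4A-AS1 (0.20 ± 0.17). ZFAS1 (-0.07 ± 0.14) stood at 116 and 93.4 CPM in shNull, against 92.8 and 107 CPM in shSETD8, with overlapping groups. Of 12 measured genes for snoRNP proteins, 8 were above 0 and 4 below (median 0.02). RUVBL1, an assembly ATPase, stood at 283 and 288 CPM in shNull, against 333 and 329 CPM in shSETD8, and DKC1, the pseudouridine synthase, at 335, 331, 246 and 313 CPM in the same order.

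Of 16 nonsense-mediated decay genes, 6 were above 0 and 10 below, with a median of -0.04 and 0 with an unadjusted p under 0.05. Of 13 genes for paraspeckle proteins, 2 were above 0 and 11 below (median -0.12), with groups apart and lower for 8 (61.5%, against 22.4% lower over all genes). CPSF6, a subunit of the cleavage factor that sets poly(A) sites, stood at 210 and 204 CPM in shNull, against 178 and 156 CPM in shSETD8. Of 12 nuclear speckle genes, 1 was above 0 and 11 below (median -0.15), and 0 had an unadjusted p under 0.05 by edgeR. The groups were apart for 9 of the 12, of which 8 were lower. Over all genes 45.3% were apart and 22.4% were apart and lower. SRRM2, a core speckle protein gene, stood at 1103 and 1188 CPM in shNull, against 995 and 961 CPM in shSETD8. Of a list of 24 named long noncoding RNAs, 17 were found by symbol, with 6 above 0 and 11 below. NORAD, also on that list, was measured under the symbol LINC00657 and counted only as a LINC member. TUG1, a conserved nuclear and cytoplasmic RNA, had a log2 fold change of -0.30 ± 0.11 (SE), and PVT1, next to MYC, one of 0.03. DESeq2 called none of these genes.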

How the data were processed

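Counts in the deposited table were whole numbers for each gene with no normalisation, for 4 libraries of poly(A) RNA made with a stranded kit and read as single 50-base reads, per the labels. The submitters' processing notes name Trimmomatic 0.36, FastQC 0.10.1, STAR 2.4.0.1, DESeq 1.32.0 and the build hg19. The sources name no counting program. Another 2 columns matched no sample and were not used.

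Total counts were 44527591 and 40908334 for shNull and 52627366 and 49064974 for shSETD8. The main test was edgeR 4.0.16 with TMM, filterByExpr and quasi-likelihood F tests over 14546 genes (2293 removed), with Benjamini-Hochberg adjustment and a threshold of 0.05. Standard errors are the absolute log2 fold change divided by the root of F. The design text of the series names DESeq2, run here (1.42.0, Wald) on the whole table. CPM uses TMM library sizes, and differences of 1 library use a prior count of 2. The steps were tested on simulated data. At 2-fold, 4-fold and 8-fold changes edgeR recovered 35 of 67, 62 of 67 and 62 of 64 changed genes. DESeq2 recovered 46 of 67, 64 of 67 and 60 of 66. Among unchanged genes edgeR made 20 false calls and DESeq2 53, for both a larger share of calls than the 0.05 aimed for. In the real libraries the lowest adjusted p by edgeR's quasi-likelihood test was 0.289, so the simulated rates may not hold for them. Exact binomial intervals (95%) were used for count ratios.

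Of the 149 members, 148 were tested and LINC00639 was not. Names, neighbours, promoters and microRNAs come from RefSeq (GRCh38.p14), which matched 147. Exon lengths and shared 50-base words come from GENCODE transcripts and covered 123 members (82.6%). LINC genes were named by rule: among those averaging 100 or more normalised counts, the 8 highest and 8 lowest fold changes and the 5 most abundant, and any called by edgeR or DESeq2. Members and lists were chosen with earlier results of these data known. LINC00889, LINC01096, LINC00570, LINC00907, LINC01569, the renamed LINC genes, the overlapping genes and the TATAA search were chosen after values were seen. The split by the X chromosome was not planned.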

Additional observations from a re-analysis of the deposited data

How the results depend on the processing

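With 2 libraries per group, calls depended on the test. edgeR's quasi-likelihood test called 0 genes (1573 had an unadjusted p under 0.05) and limma-voom also 0, while DESeq2 called 283 (3 LINC genes, 2 hosts) and the edgeR likelihood ratio test 247 (4 LINC genes, 1 host). With 1 library left out, a group of 1 library is taken to vary as the other group does. edgeR then called 0 to 2550 genes, 0 to 14 LINC genes and 0 to 3 hosts; it called 1418 genes, 11 LINC genes and 2 hosts without shSETD8 replicate 1, and 2550, 14 and 3 without replicate 2. DESeq2 in such fits, added after seeing the data, called 20 and 51 genes without shNull replicate 1 or 2 (0 and 1 LINC genes, 0 hosts), and 754 and 1548 without shSETD8 replicate 1 or 2 (4 and 9 LINC genes, 1 and 2 hosts).

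The LINC median ran from -0.17 to -0.064 with a library left out and was -0.0036 for a mean of at least 100 only; the host median ran from 0.012 to 0.054. SETD8 kept a log2 fold change of -0.998 under DESeq2, where it passed, and ran from -1.53 to -0.61 with a library left out. LINC00896 reversed to -0.040 under limma-voom. Signs turned with a library left out for GAS5 (-0.11 to 0.26), SNHG5 (-0.067 to 0.12), SNHG7 (-0.15 to 0.25), LINC00668 (-0.037 to 1.496), LINC00896 (-1.71 to 1.55), LINC01123 (-0.011 to 0.72), LINC01260 (-1.89 to 0.081) and LINC01001 (-0.24 to 0.018). The causes were not tested. No paired analysis was possible because replicates are numbered only in record order. Depth limits the 69 LINC members with under 100 counts in every library.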
